A study of Oryctolagus cuniculus with 4 samples.

Results

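Apoptosis is the ordered death of a cell, and in skin it takes part in the removal of wound cells once a scar matures. In its mitochondrial branch, proteins of the BCL2 family decide whether the outer mitochondrial membrane is opened, after which cytochrome c drives APAF1 to form the apoptosome and caspases cut the cell's proteins. In its death receptor branch, receptors such as FAS recruit and activate caspases at the cell surface, and the inhibitor of apoptosis proteins hold the caspases of both branches back. 5-fluorouracil, the drug behind the treatment examined here, disturbs the synthesis of nucleotides and of nucleic acids.

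The genes described here were the BCL2 family, the caspases and their regulators. The family was picked with earlier results of these data known, its members were then taken by gene symbol and not by their values, and 30 of 13913 genes in the table carried a matching symbol. Among these were 4 pro-survival BCL2 proteins, 1 pore former, 3 BH3-only proteins, 2 other BCL2-like proteins, 5 proteins of the apoptosome or the mitochondrial intermembrane space and their relatives, 4 inhibitor of apoptosis proteins, 4 genes of the initiator caspases, 3 genes of the death receptor complex and RIP kinases and 2 death-associated protein kinases. BAX, BAD, BID, BBC3, CYCS, CASP9, FADD, BIRC5, CASP1, CASP14, RIPK1, RIPK3 and RIPK4 were not analysed here, so several steps of both branches have no value below.

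To examine how drug-loaded microneedles (MNs) acted on hypertrophic scar (HS), scar tissue was raised on the ears of wild-type female rabbits by wounding, and cells of its ventral epidermis and dermis were profiled with the 10x Genomics droplet method. The labels gave no age. The HS group held 2 libraries of scar without treatment, and the drug-loaded MNs group held 2 libraries of scar that had received needle patches with a 5-fluorouracil prodrug weekly for 3 weeks. Each library came from a scar tissue. The study's methods divided rabbits, not tissues, among the treatments, so the 2 groups held different animals. The supplement calls the samples biologically independent, but which rabbit gave each tissue is not stated. The p-values measure only the spread between these libraries. There was no library with drug-free MNs, so the needles and the drug cannot be told apart.

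The table held 1 value per gene and library, an average over all cell types. Each value is a relative expression, where 1 unit is a 1000000th of everything measured in that library, and values are not to be compared between genes because no correction for gene length is known. Each library had between 11844 and 12059 genes above 0, and the sequencing depth was unknown. Keratinocyte and fibroblast markers were present in all 4 libraries, as the labelled tissue would have. Fibroblast markers (7 of 8 listed, none at 0) summed to 22559 and 23029 units in HS and to 44754 and 48717 units in drug-loaded MNs. Macrophage markers (9 of 12 listed, none at 0 in all libraries) summed to 132 and 140 units in HS and to 308 and 313 units in drug-loaded MNs. The only T cell marker measured of 6 listed was at 0.559 and 1.24 units in HS and 3.73 and 2.31 units in drug-loaded MNs. Summed markers of basal and suprabasal keratinocytes, endothelial, mural, mast, Schwann and cycling cells and of the dissociation response overlapped between the groups. The share of mitochondrially encoded genes was 2.75% and 2.80% in HS, beside 4.37% and 4.58% in drug-loaded MNs. The part of these differences in the results below was not tested.

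**Figure D1:**
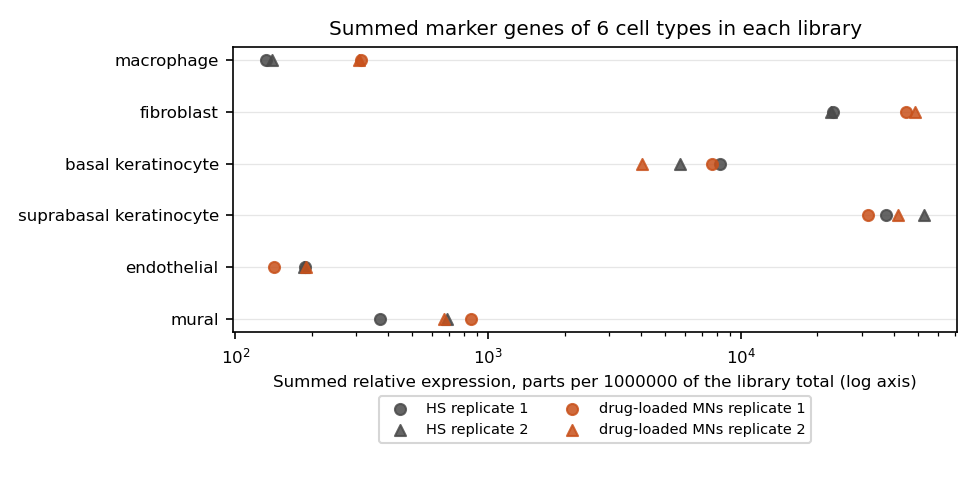
Summed relative expression (horizontal axis, parts per 1000000 per library, log axis) of marker genes of 6 cell types in each library, 1 point per library. The macrophage and fibroblast sums of both drug-loaded MNs libraries lie above those of both HS libraries, while the basal keratinocyte sums overlap.

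Apoptosis genes as a group stood close to the rest of the transcriptome. Of the 30 genes, 25 had a mean of at least 1 unit and were tested in limma. None of the 25 passed an adjusted p of 0.05, as 0.0428% of all 9348 tested genes did. Before adjustment, 2 genes that were higher in drug-loaded MNs had a p under 0.05 (8% of the 25, against 7.26% of all tested genes) and 0 lower (against 1.39%). The groups did not overlap in 7 genes that were higher in drug-loaded MNs (28%, against 26.6% of all tested genes) and in 2 that were lower (8%, against 11.2%). These shares lie near the background, so the counts give no result particular to apoptosis genes.

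The size of the differences was small. Log2 fold changes, taken on log2(value + 1) as drug-loaded MNs minus HS, ran from -0.43 in BIRC3 to 0.73 in AIFM2, and 0 genes exceeded an absolute value of 1. The median of the 25 genes was 0.17, beside 0.12 over all tested genes. Under median ratio scaling the median of all tested genes was -0.0010 and that of the 25 genes 0.04, and 19.1% of all tested genes were higher and 19.7% lower without overlap, beside 7 (28%) and 4 (16%) of the 25. Before that scaling, 20 of the 25 genes had a value above 0 (80%), where 64.6% of all tested genes did. Above the median of all tested genes lay 14 of the 25, both before and under that scaling. The median difference between the HS libraries was 0.33 on the log2 scale, close to the 0.33 of all tested genes, and between the drug-loaded MNs libraries it was 0.18, beside 0.23. In 16 of the 25 genes the HS libraries differed from each other by more than the groups did. The same count was not made over all tested genes, so it is not read as particular to apoptosis genes. HS replicate 1 was the lowest library for 13 of the 25 genes and drug-loaded MNs replicate 1 the highest for 13, where the same libraries were lowest for 44.5% and highest for 40.1% of all tested genes.

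**Figure D2:**
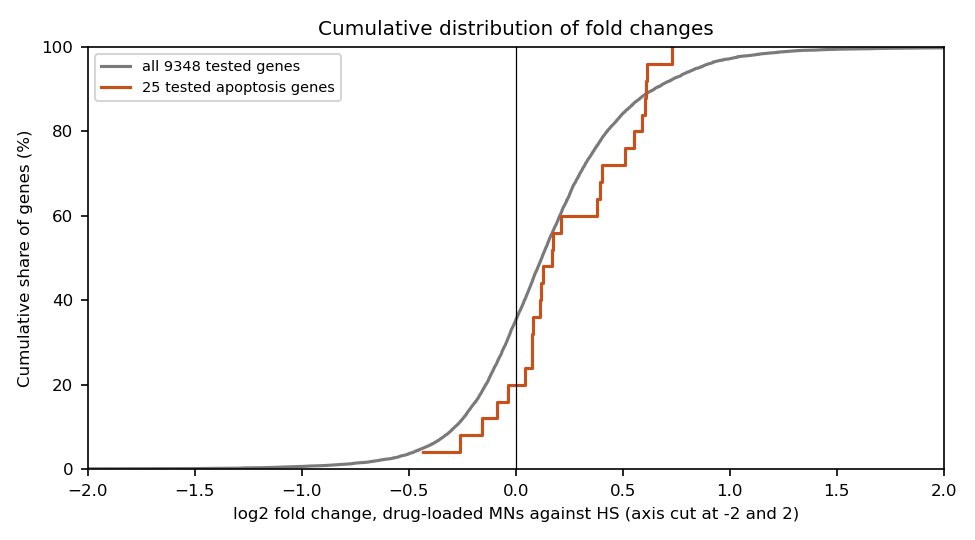
Cumulative share of genes (vertical axis, %) by log2 fold change between drug-loaded MNs and HS (horizontal axis, shown from -2 to 2) for all 9348 tested genes and for the 25 tested apoptosis genes. The median is 0.17 for the apoptosis genes and 0.12 for all tested genes, and the apoptosis genes end at -0.43 and 0.73, within the range of the others.

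Among the pro-survival BCL2 proteins, which bind and hold back the pore formers, BCL2 itself differed most clearly from library to library by group. Its expression was 12.02 and 12.66 units in HS and 20.4 and 18.2 units in drug-loaded MNs. The HS libraries lay close together and both drug-loaded MNs libraries stood above them. The means were 12.3 ± 0.450 and 19.3 ± 1.55 units (SD, n = 2 each), a fold of 1.56. On the log2 scale the fold change of BCL2 was 0.60 with an SE of 0.25 (limma adjusted p 0.561). The unadjusted p of BCL2 was 0.0463, and it was 0.0665 under median ratio scaling and 0.0697 in a fit blocked on replicate number.

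The other pro-survival genes were close to level or rested on a single library. MCL1, a short-lived protein that keratinocytes and many other cells need to survive, was at 138 and 170 units in HS and 144 and 154 units in drug-loaded MNs, with both treated libraries between the untreated ones (log2 fold change -0.04, SE 0.22). BCL2L1, which encodes BCL-XL, stood at 21.0 and 23.9 units in HS and at 23.97 and 22.33 units in drug-loaded MNs, and the groups overlapped (log2 fold change 0.04, SE 0.24). BCL2L2, which encodes BCL-W, was at 2.70 and 8.60 units in HS and 9.53 and 6.92 units in drug-loaded MNs. HS replicate 1 alone was low there. The log2 fold change of BCL2L2 was 0.61, and it was -0.07 without HS replicate 1 and 1.30 without HS replicate 2. The sign of BCL2L1 turned without HS replicate 1 (-0.05) and that of MCL1 without HS replicate 2 (0.11).

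The genes that act against the pro-survival proteins showed no difference that passed a test. BAK1, which forms pores in the outer mitochondrial membrane, was at 41.88 and 29.97 units in HS and 35.9 and 39.1 units in drug-loaded MNs, with both treated libraries between the untreated ones (log2 fold change 0.08, SE 0.26). BCL2L11, which encodes the BH3-only protein BIM, was at 6.58 and 5.58 units in HS and 6.16 and 7.15 units in drug-loaded MNs, and the groups overlapped (log2 fold change 0.11, SE 0.28). BAK1 and BCL2L11 were both below 0 with median ratio scaling (-0.05 and -0.0031) and with quantile normalization (-0.04 and -0.13), and BAK1 was at -0.16 without HS replicate 2, so no direction can be given for them. BMF, another BH3-only gene, stayed under the minimum of 1 unit at 0.371 and 0.372 units in HS and 0.891 and 0.436 units in drug-loaded MNs. HRK was at most 0.0312 units and was listed at 0 in a library of each group. BCL2L14 and BCL2L15, BCL2-like genes of less settled function, were between 0.0279 and 0.351 units in all libraries and were not tested.

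**Figure D3:**
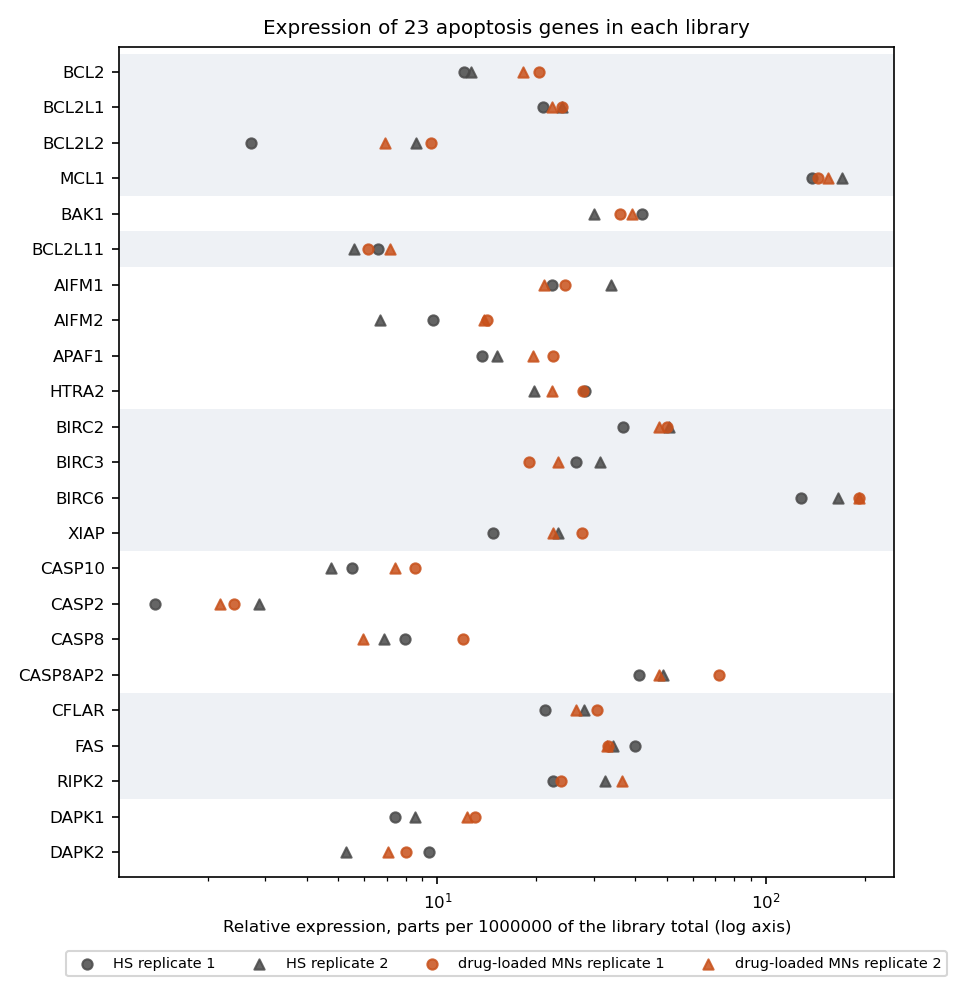
Relative expression (horizontal axis, parts per 1000000 per library, log axis) of 23 tested apoptosis genes in each library, 1 point per library, with grey bands alternating between role groups. For BCL2, APAF1, AIFM2, CASP10, BIRC6 and DAPK1 both drug-loaded MNs libraries lie above both HS libraries, and for BIRC3 and FAS both lie below.

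Downstream of the mitochondrial pore, APAF1, the scaffold of the apoptosome, stood at 13.7 and 15.1 units in HS and at 22.5 and 19.5 units in drug-loaded MNs. The groups did not overlap, at a log2 fold change of 0.51 with an SE of 0.25 (limma adjusted p 0.675). HTRA2, a protease of the intermembrane space that binds inhibitor of apoptosis proteins once released, was at 28.03 and 19.72 units in HS and 27.8 and 22.4 units in drug-loaded MNs, with complete overlap (log2 fold change 0.08, SE 0.28). Its sign turned with median ratio scaling (-0.05), with quantile normalization (-0.05) and when HS replicate 2 (-0.16) or drug-loaded MNs replicate 1 (-0.07) was left out.

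The apoptosis-inducing factor family gave the highest value and the second lowest value of all 25 genes. AIFM2, also known as FSP1 for its part in holding back lipid peroxidation and ferroptosis, was at 9.69 and 6.69 units in HS and at 14.2 and 13.9 units in drug-loaded MNs. Both treated libraries lay above both untreated ones, by a fold of 1.71 between the means. The log2 fold change of AIFM2 was 0.73 (SE 0.29, limma adjusted p 0.524, unadjusted p 0.0368), and the unadjusted p was 0.0740 with median ratio scaling and 0.101 with quantile normalization. AIFM1, the mitochondrial oxidoreductase for which the family is named, was at 22.3 and 33.6 units in HS and 24.4 and 21.1 units in drug-loaded MNs, where HS replicate 2 alone was high. Its log2 fold change was -0.26 (SE 0.28), and 0.03 without HS replicate 2. AIFM3 was listed at 0 in all 4 libraries.

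Inhibitor of apoptosis proteins, ubiquitin ligases or caspase binders with BIR domains, did not share a direction. BIRC6, a very large ubiquitin ligase, was at 128 and 166 units in HS and at 191 and 191 units in drug-loaded MNs, without overlap (log2 fold change 0.39, SE 0.23, limma adjusted p 0.730). It was 0.21 without HS replicate 1 and 0.58 without HS replicate 2. XIAP, which binds and blocks caspases directly, was at 14.8 and 23.3 units in HS and 27.5 and 22.5 units in drug-loaded MNs, and HS replicate 2 lay between the treated libraries. The log2 fold change of XIAP was 0.40 (SE 0.30), and it was 0.09 without HS replicate 1 and 0.71 without HS replicate 2.

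BIRC2 and BIRC3 encode the closely related cIAP1 and cIAP2, which place ubiquitin on RIPK1 in tumour necrosis factor signalling, and they lie next to each other in RefSeq's annotation of rabbit (mOryCun1.1). BIRC3 was at 26.3 and 31.3 units in HS and at 19.0 and 23.3 units in drug-loaded MNs. Both treated libraries lay below both untreated ones, and the log2 fold change of BIRC3 was -0.43 (SE 0.25, limma adjusted p 0.737), lower than that of any other tested apoptosis gene. It lay at the percentile 4.95 of the fold changes of all tested genes, and it was -0.56 under median ratio scaling. BIRC2 was at 36.8 and 50.72 units in HS and 49.997 and 47.29 units in drug-loaded MNs, and the groups overlapped (log2 fold change 0.17, SE 0.25, and -0.06 without HS replicate 1).

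Of the initiator caspases, CASP10 was at 5.51 and 4.73 units in HS and at 8.54 and 7.41 units in drug-loaded MNs, without overlap (log2 fold change 0.55, SE 0.28, limma adjusted p 0.685). CASP8, which starts the death receptor branch, was at 7.97 and 6.90 units in HS and at 11.96 and 5.94 units in drug-loaded MNs, so the treated libraries were the highest and the lowest of the 4. The log2 fold change of CASP8 was 0.17 (SE 0.36), and -0.28 without drug-loaded MNs replicate 1. CASP2 was at 1.38 and 2.86 units in HS and 2.40 and 2.19 units in drug-loaded MNs (log2 fold change 0.12, SE 0.34, and -0.23 without HS replicate 1). CASP8AP2, a nuclear protein first described as a binder of caspase-8, was at 40.9 and 48.5 units in HS and 71.6 and 47.3 units in drug-loaded MNs, and drug-loaded MNs replicate 1 alone was high (log2 fold change 0.38, SE 0.27, and 0.08 without that library).

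CFLAR, which encodes c-FLIP, an inactive relative of CASP8 that limits its activation, neighbours CASP10 in the same annotation, and CASP10 neighbours CASP8. CFLAR was at 21.19 and 27.97 units in HS and 30.5 and 26.3 units in drug-loaded MNs, with overlap (log2 fold change 0.21, SE 0.26, 0.02 without HS replicate 1 and 0.40 without HS replicate 2). Of these 3 neighbours only CASP10 had groups without overlap.

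FAS, the receptor at the head of the death receptor branch, was at 39.9 and 34.1 units in HS and at 33.1 and 32.7 units in drug-loaded MNs. Both treated libraries lay just below both untreated ones, at a log2 fold change of -0.16 with an SE of 0.23 (limma adjusted p 0.901). It was -0.05 without HS replicate 1 and -0.27 without HS replicate 2, so the size of the difference rested on single libraries. RIPK2, a kinase that carries signals from NOD receptors rather than from death receptors, was at 22.4 and 32.3 units in HS and 23.8 and 36.5 units in drug-loaded MNs (log2 fold change 0.13, SE 0.31). Replicate 2 was the higher library in both groups. Under median ratio scaling the value of RIPK2 was -0.0027, under quantile normalization it was -0.01, and it turned when HS replicate 1 (-0.13) or drug-loaded MNs replicate 2 (-0.17) was left out.

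The death-associated protein kinases are regulated by calcium and calmodulin and act in cell death and autophagy. DAPK1 was at 7.43 and 8.53 units in HS and at 13.0 and 12.3 units in drug-loaded MNs. The groups were well apart, with a fold of 1.59 between the means and a log2 fold change of 0.61 with an SE of 0.27 (limma adjusted p 0.586, unadjusted p 0.0527). DAPK2 was at 9.45 and 5.26 units in HS and 8.05 and 7.05 units in drug-loaded MNs, both treated libraries between the untreated ones (log2 fold change 0.08, SE 0.33). Its sign turned with median ratio scaling (-0.04), with quantile normalization (-0.16) and without HS replicate 2 (-0.29).

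**Figure D4:**
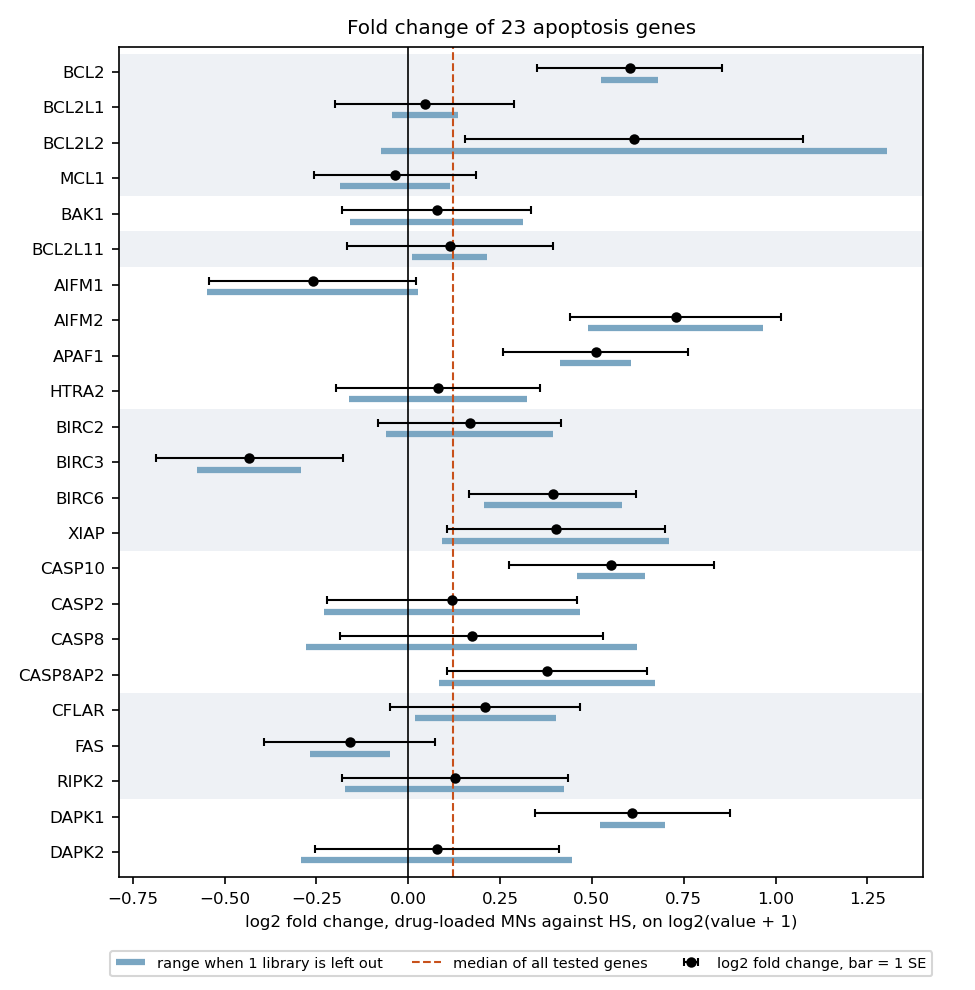
Log2 fold change between drug-loaded MNs and HS (horizontal axis, on log2(value + 1)) of 23 tested apoptosis genes, with bars of 1 SE in black, the range when 1 library is left out in blue and the median of all tested genes as a dashed line at 0.12. The blue ranges of BCL2, AIFM2, APAF1, CASP10, BIRC6 and DAPK1 stay above 0 and those of BIRC3 and FAS below it. In these genes the groups do not overlap, so their ranges cannot cross 0. That of BCL2L2 runs from -0.07 to 1.30.

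BCL2, AIFM2, APAF1, CASP10, BIRC6 and DAPK1 were thus among the genes with higher and no overlapping values, and BIRC3 and FAS were the 2 with lower ones. All 8 kept their direction in all alternatives that were run. In genes without overlap, only median ratio scaling and quantile normalization could have turned it, so the other alternatives could not test it. The higher ones include brakes on cell death (BCL2, BIRC6), parts of its machinery (APAF1, CASP10), a kinase acting in it (DAPK1) and AIFM2. They were higher in the same libraries as the fibroblast and macrophage markers. That follows from being higher without overlap, as 26.6% of all tested genes were. A link to those markers was not tested. In that annotation the spans of 9 of the 30 genes, among them APAF1 and MCL1, overlap another protein-coding gene. Strand and exons were not compared, and how reads in shared stretches were counted is not known here. Values averaged over a whole tissue do not tell more cells of a type from more RNA per cell.

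Ratios between 2 genes of the same library, taken as the difference of their log2(value + 1), were compared for 13 pairs with opposed or paralogous roles, chosen after the values above had been seen. The ratio itself is not a comparison of levels, as gene length is not corrected for, and only its difference between libraries is read. The pairs share genes with each other and were not tested. Of the 13 pairs, 4 were higher in drug-loaded MNs without overlap, 3 were lower without overlap and 6 overlapped. Each pair without overlap held a gene whose own groups did not overlap, so these counts are no separate result. The share among other pairs of genes was not computed.

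The log2 ratio of BCL2 to MCL1 was -3.41 and -3.64 in HS, against -2.76 and -3.02 in drug-loaded MNs. The groups differed by 0.64, and the libraries within a group by 0.23 and 0.25. The log2 ratio of BAK1 to BCL2 was 1.72 and 1.18 in HS, against 0.79 and 1.06 in drug-loaded MNs. This pair differed by -0.53 between groups, about as much as the 0.54 between the HS libraries, and by -0.26 without HS replicate 1 and -0.79 without HS replicate 2. The log2 ratio of BCL2L11 to BCL2 was -0.78 and -1.05 in HS, against -1.58 and -1.24 in drug-loaded MNs, or -0.49 between the groups and -0.32 without drug-loaded MNs replicate 1. Taken on their own, MCL1, BAK1 and BCL2L11 overlapped between the groups, and BCL2 did not.

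The log2 ratio of BIRC3 to BIRC2 was -0.47 and -0.68 in HS, against -1.35 and -0.99 in drug-loaded MNs. The groups differed by -0.60, beside 0.21 and 0.36 within the groups. Ratios to XIAP, which set proteins that promote caspase activity against a caspase inhibitor, overlapped for APAF1 and HTRA2.

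The ratio of CASP10 to CFLAR was just free of overlap, at -1.77 and -2.34 in HS, against -1.72 and -1.70 in drug-loaded MNs on the log2 scale. The difference of 0.34 was 0.63 without HS replicate 1 and 0.058 without HS replicate 2. That of CASP8 to CFLAR overlapped, with a difference of -0.04. AIFM2 to AIFM1 differed by 0.99, beside 1.05 between the HS libraries, and DAPK1 to DAPK2 by 0.53, beside 0.92 between them. Without HS replicate 1 these differences were 1.51 and 0.075, and without HS replicate 2 they were 0.46 and 0.99. For these last pairs the spread of the HS libraries was thus as large as or larger than the difference between groups.

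**Figure D5:**
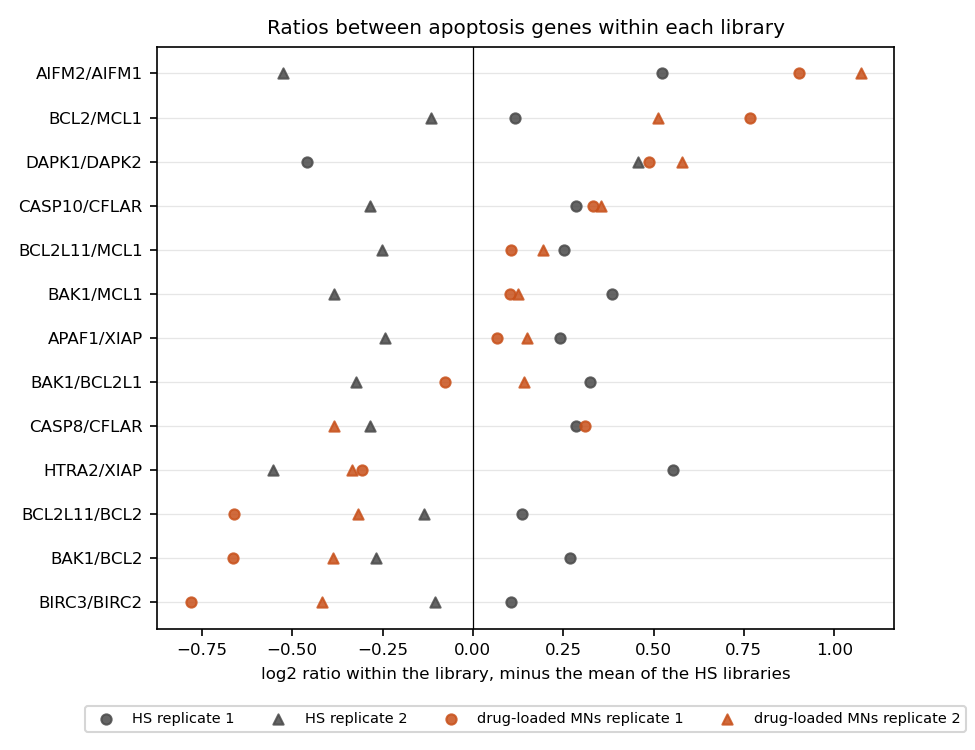
Log2 ratio of 2 apoptosis genes within each library, minus the mean of the HS libraries (horizontal axis), for 13 pairs (vertical axis), 1 point per library. In BCL2/MCL1 both drug-loaded MNs libraries lie to the right of both HS libraries and in BIRC3/BIRC2 to the left, while the pairs with XIAP overlap.

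Genes around these pathways were read from 7 lists with 94 entries, of which 50 were in the table and 49 were tested. None of the 49 passed an adjusted p of 0.05 in limma, and 3 had an unadjusted p under 0.05 (6.12%, against 7.26% of all tested genes in that direction), all of them higher in drug-loaded MNs, among them IGF1 and IL1B. IGF1, a growth factor that signals survival through AKT, was at 15.5 and 23.0 units in HS and 52.9 and 49.7 units in drug-loaded MNs (log2 fold change 1.40, SE 0.27, limma adjusted p 0.264). IL1B, the cytokine that caspase-1 matures, was at 19.0 and 16.6 units in HS and 47.6 and 26.2 units in drug-loaded MNs (log2 fold change 0.95, SE 0.32, limma adjusted p 0.435).

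By list, the 6 tested death ligands, receptors and adaptors had a median log2 fold change of 0.05 with 3 higher and 3 lower. The 8 tested genes of the p53 arm, which links DNA damage to cell death, had a median of 0.06 with 5 higher and 3 lower, and 0 at an unadjusted p under 0.05. The 12 genes of the AKT, PIM and 14-3-3 survival arm had a median of 0.07, with 4 higher (33.3%) and 5 lower (41.7%) without overlap, where all tested genes had 26.6% and 11.2%. The 7 caspase substrates and nucleases had a median of 0.22 and the 4 inflammasome and gasdermin genes one of 0.51. The 12 mitochondrial channel, BNIP and BAG genes had a median of -0.10, with 9 lower and 3 higher. Over the 49 genes, the groups did not overlap in 11 that were higher (22.4%) and 12 that were lower (24.5%). None of the 3 listed necroptosis genes was analysed here.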

How the data were processed

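Per the labels, reads of 10x Genomics libraries were processed with Cell Ranger 2.1.1, and the methods of the study name Seurat for the counts of unique molecular identifiers and mention a correction of technical differences between samples, at a step not given in the sources used here. The submitters' processing notes list the mouse build mm10, whereas the gene identifiers are those of rabbit. The deposited values are a signal of relative expression: each column summed to 10000, although the table is named for FPKM. The authors filtered cells, among other things by mitochondrial share. Their methods add a kit to remove dead cells where viability was low, and do not say whether it was used for these libraries. The tissue was taken a week after the last treatment. How doublets were treated is not given in the sources used here, and no values per cell were used. Low values were compared with whole multiples of the smallest value, and 18.6% to 21.7% of those up to 20 steps lay within 0.1 of a whole number, so reads could not be recovered and the depth stayed unknown.

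Columns were rescaled to 1000000 per library, genes averaging 1 unit or more were kept, and log2(value + 1) was fitted across all 9348 of them with lmFit and eBayes with trend in limma 3.58.1 (R 4.3.3). Tests were two-sided, with Benjamini-Hochberg adjustment over all tested genes and a threshold of 0.05. The tables were made with Python 3.11.15 and pandas 2.3.3. The test had been planned for normalized values. An exact permutation test of 2 against 2 libraries cannot reach 0.05, so none was used.

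The gene family, its symbols and the other gene lists were chosen with earlier results of these data known, although the choice by symbol used no values. Named genes were those at an unadjusted p under 0.05, those without overlap and an absolute log2 fold change over 0.5, and a fixed list of core apoptosis genes; the other tested genes were named to account for the members. Some genes that enter the counts are not reported here by name. Of the 30 symbols, 29 matched a gene of the RefSeq list of mOryCun1.1, which was used only for neighbours, and 9 overlapped another protein-coding gene there. Alternatives were median ratio scaling, quantile normalization, pseudocounts of 0.1 and 5, no filter, a minimum mean of 5, eBayes without trend, the replicate number as a block and leaving out each library. The fit was tested on simulated data with known changes. Those changes were larger than any seen in the apoptosis genes, so the simulation does not speak to differences of their size.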

Additional observations from a re-analysis of the deposited data

How the results depend on the processing

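Of the 25 tested apoptosis genes, 0 had a limma adjusted p under 0.05 in any of the alternatives that kept all 4 libraries. As only 0.0428% of all tested genes passed as reported, 0 of 25 cannot show whether adjusted calls depend on the processing. The number at an unadjusted p under 0.05, 2 as reported, was 0 under median ratio scaling, quantile normalization and no filter on low values, 4 with eBayes without trend, and 0 to 3 when 1 library was left out. With the replicate block it was 1, while over all tested genes the calls at an adjusted p under 0.05 went from 4 to 241. The deviations of same-numbered libraries correlated at 0.22. The groups held different rabbits, and 2 pairs that share only a number do not establish a pairing. Over all tested genes those calls were 0 under both scalings, with a pseudocount of 5 and without a filter, 1 without trend, and 0 to 75 with 1 library left out. Apoptosis genes without overlap, 9 as reported, numbered 11 (7 higher, 4 lower) under both scalings and 14 to 21 with 1 library left out, where fewer values have to be apart. Under quantile normalization these were 28% higher and 16% lower, beside 16.7% and 20.8% of all tested genes. With 1 library left out, 40% to 64% were higher and 12% to 24% lower. Over all tested genes these shares were 34.6% to 54.2% and 18.1% to 29.9%. Their median log2 fold change of 0.17 was 0.036 under median ratio scaling, -0.012 under quantile normalization and 0.14 to 0.39 with 1 library left out.

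Of the 25 genes, 12 kept their direction in every alternative and 13 did not. In genes whose groups do not overlap, leaving out 1 library cannot turn the direction. Under median ratio scaling the log2 fold change turned to -0.084 in BCL2L1, -0.054 in BAK1, -0.0031 in BCL2L11, -0.049 in HTRA2, -0.0027 in RIPK2 and -0.043 in DAPK2. Under quantile normalization it turned to -0.10 in BCL2L1, -0.043 in BAK1, -0.13 in BCL2L11, -0.053 in HTRA2, -0.14 in CASP2, -0.061 in CASP8, -0.012 in RIPK2 and -0.16 in DAPK2. With 1 library left out it ran from -0.045 to 0.13 in BCL2L1, -0.073 to 1.30 in BCL2L2, -0.19 to 0.11 in MCL1, -0.16 to 0.31 in BAK1, -0.55 to 0.027 in AIFM1, -0.16 to 0.32 in HTRA2 and -0.060 to 0.39 in BIRC2. It ran from -0.23 to 0.47 in CASP2, -0.28 to 0.62 in CASP8, -0.17 to 0.43 in RIPK2 and -0.29 to 0.45 in DAPK2. CASP2 had no value at a minimum mean of 5. The cause of these shifts was not tested. With 1 library left out, the lone library was assumed to vary like the other group. The unknown depth leaves no counting error for any value.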
